A study of Mus musculus with 4 samples.

Results

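The Hox genes encode homeodomain transcription factors and lie in 4 clusters, and 38 of them (10 each of HoxA and HoxB, 9 each of HoxC and HoxD) were examined for binding of MIXL1, itself a homeodomain factor, of the paired type, made in the primitive streak. The genes were taken by name from a fixed list and located in RefSeq (GRCm38.p6), and each cluster was taken from its first to its last listed gene with a further 500 kb on both sides. Of the 9598 peaks in the deposited list, 33 fell in these 4 windows, 3 inside the clusters and 30 in the flanks.

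The chromatin came from mouse EpiSC (epiblast stem cells, pluripotent lines from the epiblast after implantation) that carry an inducible Mixl1. They were kept on irradiated mouse fibroblasts with bFGF at 10 ng/mL and activin A at 20 ng/mL, then grown as embryoid bodies in serum for 2 days, with doxycycline at 1 µg/mL for the last 24 h. There were 4 libraries, 2 from anti-FLAG M2 precipitation of FLAG-MIXL1 and 2 from input chromatin taken without antibody, and all 4 came from cells given doxycycline. MIXL1 was therefore tagged and induced in every sample, and libraries of uninduced cells were not analysed here. One list of peaks covers the series, with positions but no height, score or p-value, so depth is unknown and no value has a replicate error. The list holds no expression values, so the cell type could not be checked against its markers, and whether a Hox gene was transcribed in these cells was not measured.

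Within each cluster the genes are numbered in the order in which they lie, and low-numbered genes are known to be switched on first, in the primitive streak, and to reach furthest forward in the embryo, while high-numbered genes follow later and mark the hind end. Wnt, FGF and retinoic acid signals are known to start this sequence, and Polycomb proteins to keep unused genes silent. Enhancers lie between the genes and in gene-poor stretches beyond both ends of a cluster, best studied at HoxD. Here the low-numbered side is that beyond the lowest-numbered listed gene (Hoxa2, Hoxb1, Hoxc4, Hoxd1), and the high-numbered side that beyond Hoxa13, Hoxb13, Hoxc13 or Hoxd13.

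**Figure D1:**
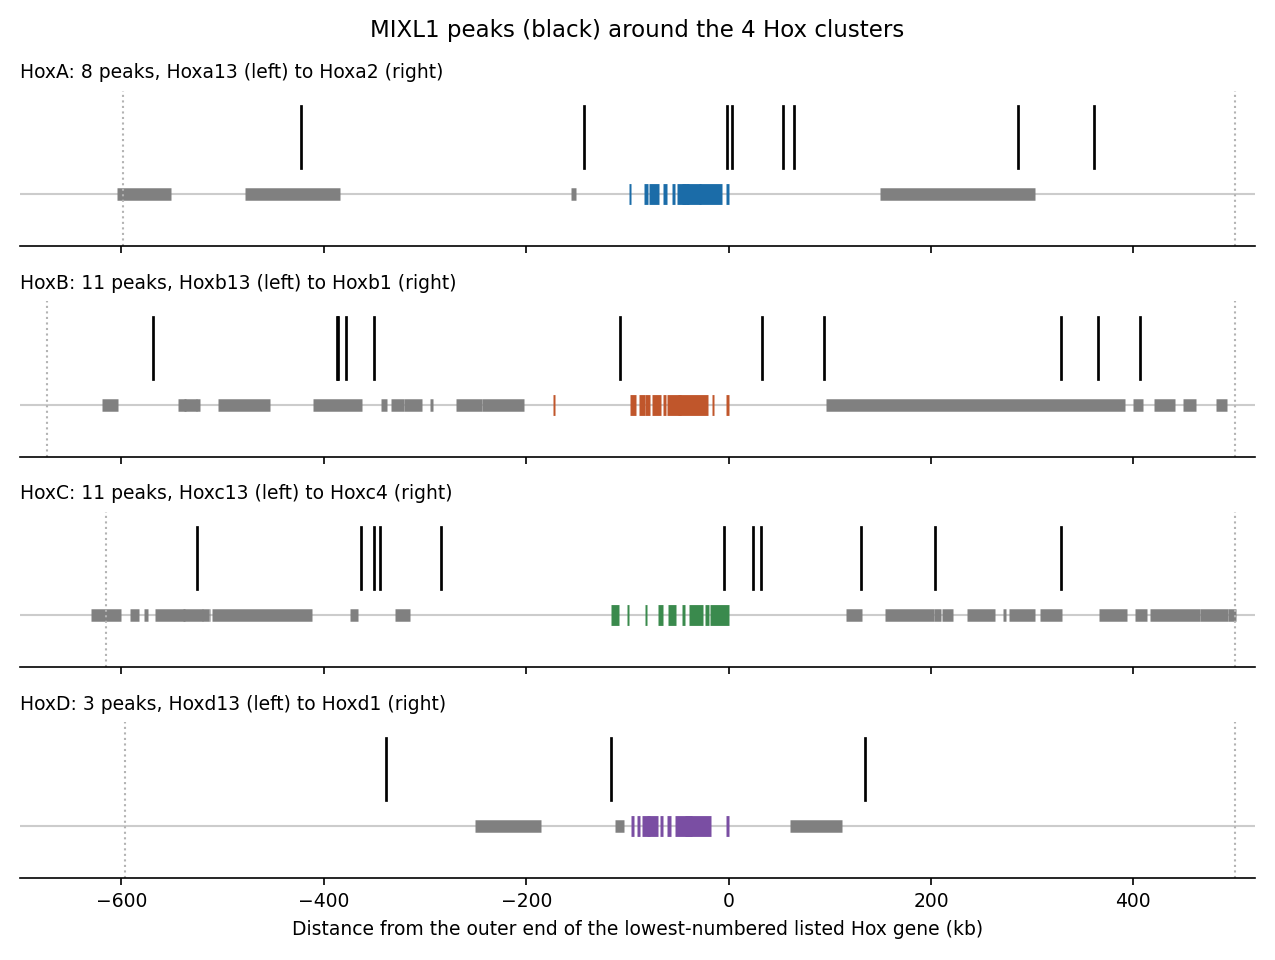
Positions of the 33 peaks (black ticks) in the 4 Hox windows, in kb from the outer end of the lowest-numbered listed gene, with high-numbered genes to the left. Coloured blocks are the listed Hox genes, grey blocks protein-coding genes outside the Hox family, and dotted lines the window ends. Only 1 peak each lies within HoxA, HoxB and HoxC and none within HoxD.

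Few peaks lay inside the clusters. HoxA (chr6:52162417-52260880, 98.46 kb) held 1 peak, HoxB (chr11:96194316-96368254, 173.9 kb) held 1, HoxC (chr15:102921131-103036856, 115.7 kb) held 1 and HoxD (chr2:74668225-74765142, 96.92 kb) held 0, which allows a count of up to 3.69 (95% Poisson limit). Together this was 3 peaks in 0.485 Mb, or 6.18 per Mb (95% Poisson interval 1.28 to 18.1). The rest of the assembled chromosomes had 3.66 per Mb, and the ratio of 1.69 (exact interval 0.349 to 4.94) did not separate the clusters from them in either direction. All 3 peaks, at 269, 463 and 375 bp, were below the median width of 485 bp over the 9403 peaks on assembled chromosomes. Those of 463 and 375 bp were above its first quartile of 350 bp.

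In HoxA the peak lay in Hoxa2, which patterns the hindbrain and the second branchial arch and is the lowest-numbered HoxA gene listed. It covered chr6:52163766-52164034, inside the gene span of 2.42 kb (chr6:52162417-52164831) and 0.797 kb downstream of the start site on the minus strand. Exons and introns could not be told apart in the gene table used. A second peak of 266 bp lay 2.77 kb beyond the other end of Hoxa2, in the lncRNA gene Hotairm1, so 2 peaks lay within 5 kb of Hoxa2. The next gene, Hoxa3, had no peak in its span and its nearest at 5.03 kb. The 250 bases before the start site of Hoxa2 are shown because, of the 22 listed genes in the promoter table, its start site lay closest to a peak. Capitals mark the homeodomain core TAAT, read on either strand, which occurred once (RefSeq, GRCm38.p6, chr6:52164832-52165081, minus strand).

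Hoxa2: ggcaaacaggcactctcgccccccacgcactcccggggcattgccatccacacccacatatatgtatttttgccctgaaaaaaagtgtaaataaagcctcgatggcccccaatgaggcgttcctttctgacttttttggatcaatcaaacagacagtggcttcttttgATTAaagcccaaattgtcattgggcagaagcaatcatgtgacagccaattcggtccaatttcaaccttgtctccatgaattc

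In HoxC the peak lay in Hoxc4, the lowest-numbered gene of that cluster (chr15:103018097-103036856, 18.8 kb), at chr15:103032627-103033001. The start site of Hoxc4 in the promoter table (plus strand, 103034395) lay 1.39 kb downstream of the peak. An overlapping lncRNA gene on the opposite strand, Gm30528 (chr15:103026807-103060555), has start sites in the same stretch. One of them, at 103032280, lay 347 bp from the same peak, so that this peak sits between a start of each gene, and transcription from these starts runs away from it. The outermost start of Gm30528, at 103060555, had a peak of its own. That peak, chr15:103060653-103061037, began 98 bp upstream of the start, 23.8 kb beyond the end of Hoxc4. Among the Hox windows it was the one peak that reached into a promoter window of the table. A further peak followed at chr15:103068167-103068756, 31.3 kb beyond Hoxc4. These 3 peaks were all that lay within 100 kb of Hoxc4.

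The promoter sequences of this pair are shown because peaks flank or enter them. For Hoxc4 (chr15:103034145-103034394, plus strand) and the inner start of Gm30528 (chr15:103032281-103032530, minus strand) the 250 bases before the start are given with TAAT on either strand in capitals, 1 and 3 matches. For the outer start of Gm30528 (chr15:103060506-103060805, minus strand, 250 bases before and 50 after the start) capitals mark instead the 153 bases inside the peak. That window had 4 matches to TAAT, of which 0 lay in the part inside the peak, and the rest of the peak lies outside the sequence used here.

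Hoxc4: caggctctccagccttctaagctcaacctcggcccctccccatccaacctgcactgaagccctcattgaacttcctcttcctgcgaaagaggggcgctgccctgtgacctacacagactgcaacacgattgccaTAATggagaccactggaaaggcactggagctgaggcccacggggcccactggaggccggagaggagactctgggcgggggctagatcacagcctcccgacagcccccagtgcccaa

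Gm30528, inner start: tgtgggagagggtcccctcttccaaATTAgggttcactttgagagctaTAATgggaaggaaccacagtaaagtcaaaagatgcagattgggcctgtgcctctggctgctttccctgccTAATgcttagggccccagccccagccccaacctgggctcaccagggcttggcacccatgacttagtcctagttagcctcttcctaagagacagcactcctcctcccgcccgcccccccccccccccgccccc

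Gm30528, outer start: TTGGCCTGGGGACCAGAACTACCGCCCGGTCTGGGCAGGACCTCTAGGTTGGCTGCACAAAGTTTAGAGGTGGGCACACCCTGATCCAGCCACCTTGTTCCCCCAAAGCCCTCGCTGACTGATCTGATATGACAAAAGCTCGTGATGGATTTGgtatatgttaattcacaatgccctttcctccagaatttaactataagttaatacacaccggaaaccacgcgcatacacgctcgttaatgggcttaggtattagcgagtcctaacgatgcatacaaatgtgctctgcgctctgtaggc

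In HoxB the single peak, chr11:96260257-96260719, lay in none of the Hox genes. It fell in the long space between Hoxb13 and Hoxb9, in the lncRNA gene Gm53, 10.6 kb from Hoxb9 and 63.6 kb from Hoxb13. On the Hoxb9 side it was followed by the lncRNA gene Gm51876, at 4.12 kb, and by Mir196a-1 within the span of that gene, at 4.45 kb. Of the 6 miRNA genes in the clusters Mir196a-1 was the nearest to a peak. The miRNAs of the miR-196 and miR-10 families are encoded inside Hox clusters and are known to repress Hox transcripts. Mir615 followed at 17.6 kb, while Mir10a (56.4 kb), Mir196a-2 (59.2 kb), Mir196b (66.0 kb) and Mir10b (76.9 kb) were farther from a peak. A peak overlapped 0 of the 6, against 0.244% of 1228 miRNA genes, and 2 of the 23 lncRNA genes inside the clusters, Gm53 and Gm30528, against 8.04% of 12609. Both counts are near these background shares. The nearest peak to the lncRNA gene Hotair was at 84.7 kb and that to Haglr at 99.3 kb. Distances also varied for those inside the clusters named after a Hox gene or cluster. They were 1.64 kb (Hoxaas2), 30.3 kb (Hoxb5os), 37.1 kb (Hoxaas3), 48.1 kb (Hoxb3os), 54.8 kb (Hoxa11os) and 60.9 kb (Hoxd3os1). The share of all lncRNA genes with a peak at such distances was not computed.

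The mature miRNAs are shown to set the one nearest to a peak beside its relatives, with the seed (bases 2 to 8) in capitals. The 2 miR-196 forms share a seed and so do the 2 miR-10 forms. Mir196a-1 in HoxB (chr11:96265187-96265208, plus strand) lay 4.45 kb from a peak, and Mir196a-2 in HoxC (chr15:102973365-102973386, plus strand) encodes the same mature sequence. The others are Mir196b (chr6:52230129-52230150, minus strand), Mir10a (chr11:96317186-96317208) and Mir10b (chr2:74726074-74726096). The share of all miRNA genes with a peak at such a distance was not computed.

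mmu-miR-196a-5p: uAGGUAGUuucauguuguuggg
mmu-miR-196b-5p: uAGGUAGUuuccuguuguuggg
mmu-miR-10a-5p: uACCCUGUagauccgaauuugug
mmu-miR-10b-5p: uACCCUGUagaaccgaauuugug

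Most Hox genes had a peak within 100 kb, while peaks in the gene itself were about as frequent as in other genes of such length. A peak overlapped the span of 2 of 38 genes (5.26%), Hoxa2 and Hoxc4, against 12.6% of 21519 protein-coding genes and 5.83% of the 16031 that are no longer than the longest Hox gene (44 kb). Within 5 kb the count was the same 2 genes (5.26%), against 16.3% of all protein-coding genes and 9.97% of those up to 44 kb long. Within 50 kb it was 24 of 38 (63.2%) against 37.5%, and within 100 kb 36 of 38 (94.7%) against 52.8%, both over protein-coding genes of all lengths. These members are not independent, since the 24 genes within 50 kb shared 9 peaks and 6 peaks served as the nearest of all 38. The median distance from a Hox gene to a peak was 43.2 kb (quartiles 25.7 and 59 kb), against 89.3 kb (20.7 and 245 kb) over protein-coding genes. No list test was run, as neighbouring genes share their peaks.

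**Figure D2:**
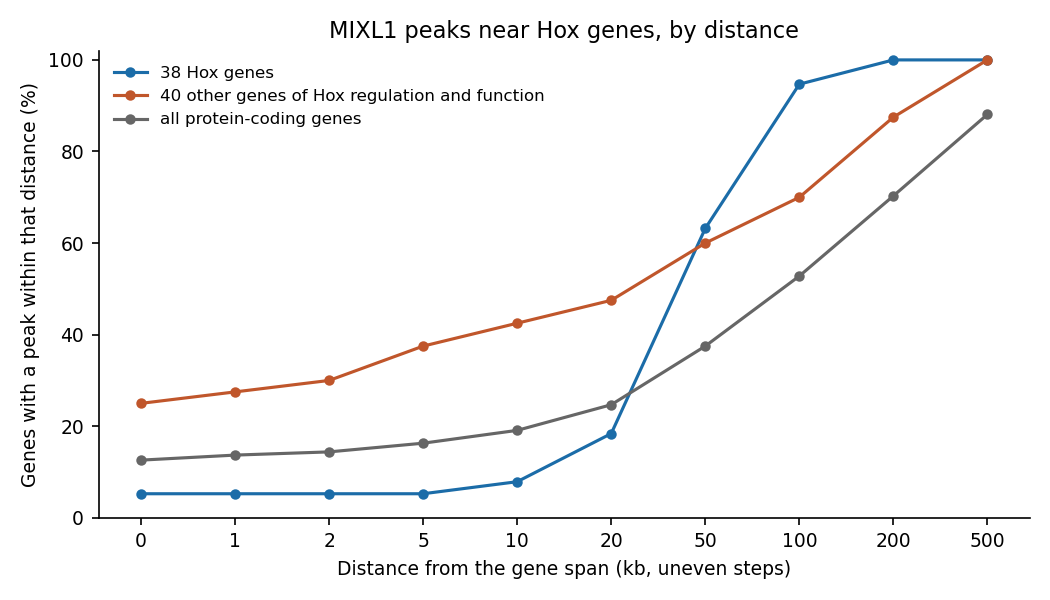
Share of genes (%) with a MIXL1 peak within a given distance of the gene span (kb, steps not to scale) for the 38 Hox genes, 40 other genes of Hox regulation and function, and all protein-coding genes. The Hox curve lies below that of all genes up to 20 kb (18.4 against 24.7%) and above it from 50 kb. The curve of all genes includes long ones. At 0 kb the Hox share (5.26%) is near the 5.83% of protein-coding genes up to 44 kb long, which were not counted apart beyond 5 kb.

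Each cluster had its own course of distances along the gene order. In HoxC the distance rose from Hoxc4 (0 kb) through Hoxc5 (15.2 kb), Hoxc6 (20.7 kb), Hoxc8 (38.4 kb), Hoxc9 (48.2 kb), Hoxc10 (60.7 kb), Hoxc11 (75.9 kb) and Hoxc12 (94 kb) to Hoxc13 (104 kb). The same peak, that in Hoxc4, was the nearest for all 9 genes, so the low-numbered end was the near one. HoxD ran the other way. Hoxd13, a gene of digits and the hind end, had a peak at 19.1 kb, followed by Hoxd12 (25.8 kb), Hoxd11 (30.4 kb), Hoxd10 (35.1 kb), Hoxd9 (48.6 kb), Hoxd8 (55.4 kb), Hoxd3 (62.8 kb) and Hoxd4 (72.8 kb), and Hoxd1 was farthest at 114 kb. Here too 1 peak, beyond Hoxd13, was the nearest for all 9 genes.

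In HoxA and HoxB 2 peaks each served as the nearest, and the order was not one-way. In HoxA the distance rose from Hoxa2 (0 kb) and Hoxa3 (5.03 kb) over Hoxa4 (25.6 kb), Hoxa5 (37.7 kb), Hoxa6 (40.8 kb), Hoxa7 (51.6 kb) and Hoxa9 (59.1 kb) to Hoxa10 (63.7 kb). It then fell to Hoxa11 (58.7 kb) and Hoxa13 (43.6 kb). In HoxB the nearest gene was Hoxb9 (10.6 kb), then Hoxb8 (18.7 kb), Hoxb7 (24.9 kb), Hoxb6 (32.1 kb) and Hoxb5 (42.8 kb). Hoxb3 (46.4 kb) and Hoxb4 (57.5 kb) were farther from that same peak, and Hoxb13, on its other side, was farthest at 63.6 kb. Hoxb1, a gene of the hindbrain, and Hoxb2 were nearer to the peak beyond the cluster, at 33.3 and 47.5 kb. The gene nearest to a peak was thus the lowest-numbered listed one in HoxA and HoxC, Hoxb9 in HoxB and the highest-numbered one in HoxD.

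**Figure D3:**
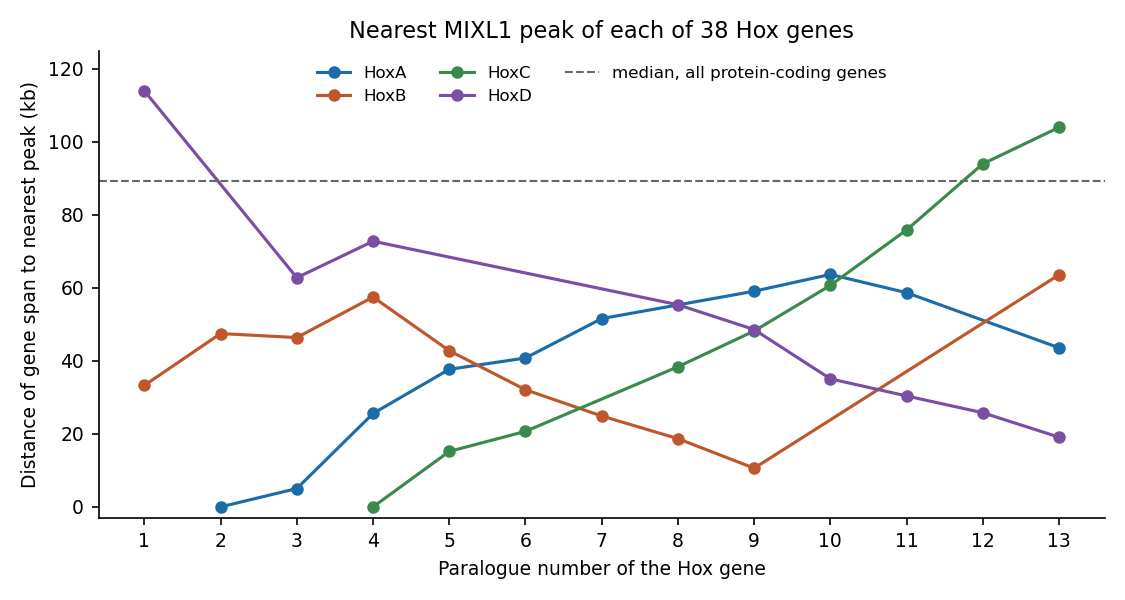
Distance (kb) from each of the 38 Hox gene spans to its nearest MIXL1 peak, by paralogue number, with the median of all protein-coding genes (89.3 kb) as a dashed line. Hoxc12, Hoxc13 and Hoxd1 lie above the line. The HoxC and HoxD courses run in opposite directions, but each follows from the position of 1 peak that is nearest to all genes of its cluster.

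The flanks held most of the peaks, and they also make up most of the searched length (2 Mb per side, against 0.485 Mb of clusters). Both sides of HoxB and of HoxC and the low-numbered side of HoxA had 5 peaks each in 500 kb (95% Poisson interval 1.62 to 11.7), the high-numbered sides of HoxA and HoxD had 2 each (0.242 to 7.22), and the low-numbered side of HoxD had 1 (0.0253 to 5.57). Over 5132 windows of 500 kb laid end to end along the chromosomes the median was 1 peak (quartiles 0 and 2). At least 1 peak was found in 8 of 8 flanks and 58.4% of the windows, at least 2 in 7 flanks and 38.2%, and at least 5 in 5 flanks and 10.1%. The 4 low-numbered flanks together had 8 peaks per Mb (4.57 to 13) and the 4 high-numbered flanks 7 (3.83 to 11.7), and these intervals overlap. The 6.18 per Mb inside the clusters (1.28 to 18.1) is not set apart from either.

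**Figure D4:**
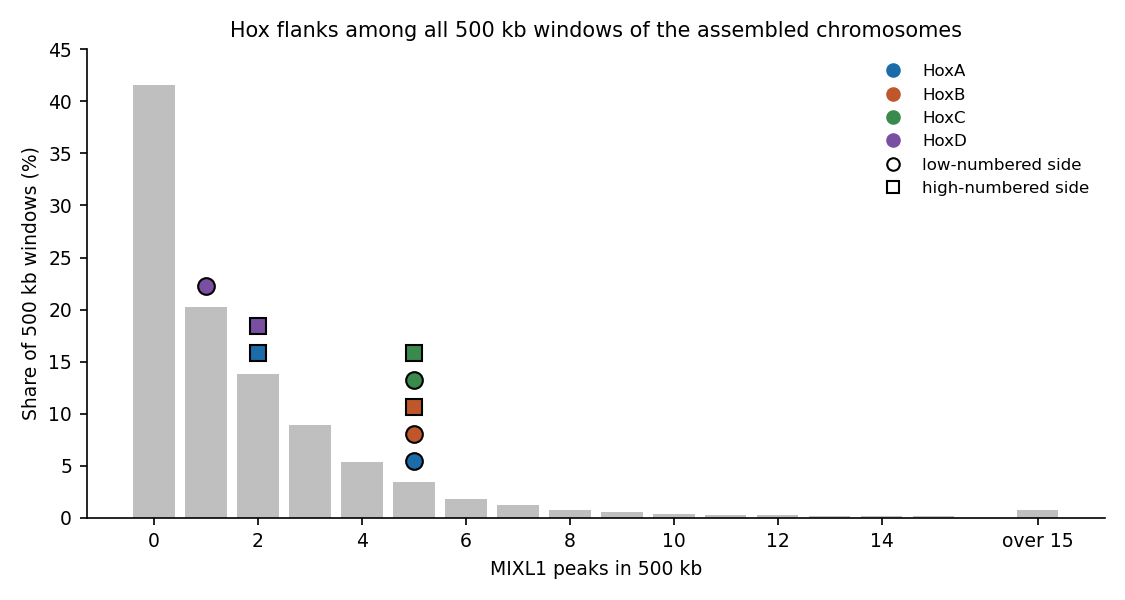
Peaks per 500 kb in the 8 flanks (symbols, stacked above the bar of their count) and in 5132 windows of 500 kb (bars, share in %). Of the 8 flanks 5 have 5 peaks, a count reached or passed by 10.1% of the windows, and the HoxD flanks have 1 and 2.

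With clusters and flanks together, the 4 windows had 33 peaks in 4.49 Mb, or 7.36 per Mb (95% Poisson interval 5.06 to 10.3), 2.02 times the 3.65 per Mb of the other assembled sequence (exact interval 1.39 to 2.83). Peaks can lie close together, so such intervals are narrower than independent loci would give. Against the rest of its own chromosome the ratio was 2.45 for HoxA (1.05 to 4.86), 1.9 for HoxB (0.941 to 3.42), 4.07 for HoxC (2 to 7.4) and 0.855 for HoxD (0.176 to 2.51). HoxC had the highest ratio, HoxA and HoxB had lower limits close to 1, and HoxD held about as many peaks per Mb as its chromosome. Among 2280 windows of the mean Hox window length (1121 kb), 7.46% had 11 or more peaks, as HoxB and HoxC did, 13.8% had the 8 of HoxA or more, and 50.4% had the 3 of HoxD or more. HoxB and HoxC lie among many genes, with 27 and 32 protein-coding genes in their windows against 15 for HoxA and 12 for HoxD. Of the 315 windows with 20 or more protein-coding genes, a limit set after the counts were seen, 12.4% had 11 or more peaks, with a median of 5. The part of gene density in the higher counts was not tested.

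**Figure D5:**
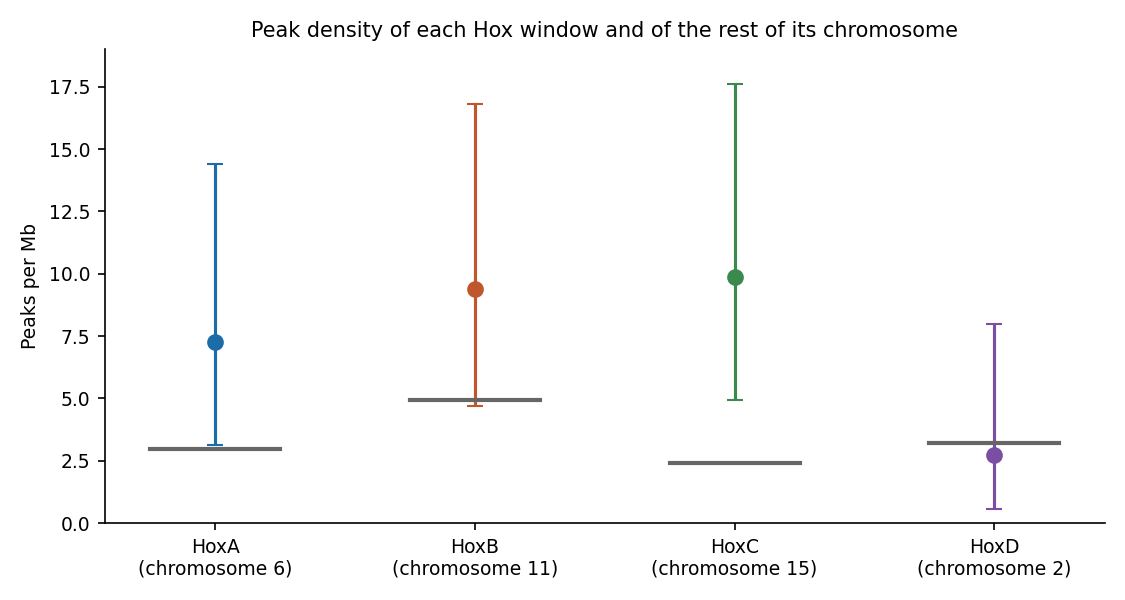
Peaks per Mb in each Hox window (points, with 95% Poisson intervals) and in the rest of the same chromosome (grey lines). HoxC, at 9.86 per Mb against 2.43, stands highest above its chromosome, and HoxD, at 2.73 against 3.2, does not stand above it.

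Close to the clusters more peaks were listed on the low-numbered sides. Within 100 kb of the cluster end there were 7 peaks on the low-numbered sides (HoxA 3, HoxB 2, HoxC 2, HoxD 0) and 2 on the high-numbered sides (HoxA 1, HoxD 1). Within 250 kb the counts were 10 and 11. The distance of 100 kb was chosen after the positions were seen, and the difference was not tested.

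Beyond the low-numbered ends, 3 of the 4 stretches up to the next gene outside the Hox family held peaks. Between Hoxa2 and Skap2 (150 kb) there were 3, the one in Hotairm1 and 2 more, chr6:52108387-52108759 in the lncRNA gene Halr1 (53.7 kb from Hoxa2) and chr6:52097671-52098022 outside genes (64.4 kb). The space between Hoxb1 and Skap1 (96.3 kb) had 2, chr11:96401510-96401750 at 33.3 kb from Hoxb1 and chr11:96462202-96462873 at 93.9 kb, the latter in the lncRNA gene Gm11529, 1.7 kb from Skap1. The space between Hoxc4 and Smug1 (116 kb) had the 2 peaks already given, while that between Hoxd1 and Mtx2 (60.7 kb) had 0. From HoxA to HoxD these 4 spaces had 20, 20.8, 17.2 and 0 peaks per Mb, from counts of 3, 2, 2 and 0. The spaces to the next gene on the high-numbered sides had 19, 0, 5.03 and 0 per Mb, from counts of 1, 0, 1 and 0. Such small counts leave the rates imprecise, and the sides were not compared by a test.

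On the high-numbered ends the peaks next to HoxA and HoxD both lay near an Evx gene. Evx1 and Evx2 encode even-skipped homeodomain proteins, and each flanks its cluster beyond the gene numbered 13. The peak chr6:52304528-52305076 lay between Hoxa13 (43.6 kb) and Evx1 (8.42 kb), which spans chr6:52313498-52318389. The peak chr2:74648628-74649169 lay on the far side of Evx2 (3.82 kb from the span chr2:74652989-74661520), 19.1 kb from Hoxd13. No peak was found between Hoxb13 and Ttll6 (28.1 kb) or between Hoxd13 and Evx2 (6.7 kb), and 1 lay in the 199 kb between Hoxc13 and Calcoco1, at chr15:102752823-102753363 in the lncRNA gene Gm36560, 168 kb from Hoxc13.

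The deserts beside HoxD are known for limb and digit enhancers. On the low-numbered side, the 782 kb between Mtx2 and Hnrnpa3 held 2 peaks (2.56 per Mb), of which chr2:74900035-74900538 lay in the window, 135 kb from Hoxd1 and 23.3 kb from Mtx2. On the high-numbered side, the 602 kb between Lnpk and Atp5g3 held 1 peak (1.66 per Mb), chr2:74426736-74427133, 241 kb from Hoxd13. With upper 95% Poisson limits of 7.22 and 5.57 peaks, neither desert can be called poorer in peaks than the 3.65 per Mb elsewhere.

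Farther out, peaks fell in neighbours of the clusters that are not Hox genes. Of the protein-coding genes outside the Hox family, 2 of 4 in the HoxA window, 3 of 17 at HoxB, 4 of 23 at HoxC and 0 of 3 at HoxD held a peak in their span, against the 12.6% of all protein-coding genes given above. Skap1 and Skap2, paralogous genes for adaptor proteins of T cell and adhesion signalling that lie beside HoxB and HoxA, both did. Skap1 (295 kb) held chr11:96696184-96696698 and chr11:96732601-96733704, the latter being the widest of the 33 at 1104 bp, and Skap2 held chr6:51875926-51876435. Igf2bp1, which encodes an RNA-binding protein of embryonic growth, held 3 peaks on the high-numbered side of HoxB, at chr11:95981058-95981431, chr11:95982479-95982798 and chr11:95989624-95990072. They were 1.05 and 6.83 kb apart, 204 to 213 kb from Hoxb13. A further peak, chr11:96017936-96018475, lay 12 kb from Igf2bp1 and 6.06 kb from Gip.

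The remaining genes with a peak were single cases. Snx11, for a sorting nexin, held chr11:96775134-96775469, and Hibadh, for an enzyme of valine breakdown, held chr6:52584311-52584800. In the HoxC window Map3k12, for a neuronal stress kinase, held chr15:102511413-102512352, 713 bp from a start site, Smug1, for a DNA glycosylase, held chr15:103167254-103167545, and Itga5, for the fibronectin receptor subunit, held chr15:103365009-103365260. Hnrnpa1, for an RNA-binding protein, had chr15:103240497-103241177 starting 100 bp from its start site and 0.593 kb from the span of Cbx5, which encodes a heterochromatin protein. A further 3 peaks of the HoxC window lay between Atp5g2 and Calcoco1 (chr15:102673525-102673871, chr15:102685941-102686254 and chr15:102691839-102692711), the first 2.48 kb from Atp5g2. The last 2 of the 33 were chr6:51800812-51801285, 57.9 kb from Skap2, and chr11:95799281-95799692, 24.8 kb from Phospho1 in the lncRNA gene Gm29933.

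In their place relative to genes and in their spacing, the shares of the whole list lay within the 95% Wilson intervals of the 33 peaks. By their centres, 12 (36.4%, 22.2 to 53.4) were inside a protein-coding gene, more than 1 kb from its ends, against 42% of 9403, 5 (15.2%, 6.65 to 30.9) in other genes only against 13.3%, and 13 (39.4%, 24.7 to 56.3) outside genes against 38%. The median width was 449 bp (quartiles 347 and 541) against 485 bp (350 and 726), a difference that was not tested. Another peak within 10 kb was present for 9 of 33 (27.3%, 15.1 to 44.2) against 30.3%. These intervals are wide, so a difference of moderate size could not have been seen with so few peaks.

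Promoter sequence was given for 22 of the 38 genes, in 24 windows that run from 250 bases before to 50 after the start. Most of these windows are of HoxA and HoxD genes. TAAT, on either strand, occurred in 19 of the 24 (79.2%), against 58% of all 32851 promoter windows in the table. Paired-type homeodomain proteins are known to bind as dimers to TAAT facing ATTA across a short gap. Such pairs with a gap of 2, 3 or 4 bases were in 0 of the 24 Hox windows, against 0.39, 0.487 and 0.399% of all promoter windows. At shares this low 0 of 24 is the likely outcome, so it does not set the Hox promoters apart. Each pair also counts as a match to TAAT. Apart from the outer Gm30528 start, no promoter window of the table in these regions overlapped a peak, so these counts do not describe bound sequence.

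Among 40 other genes of Hox regulation and function, 15 had a peak within 5 kb (37.5%), beside the 16.3% of protein-coding genes given above. Several encode TALE homeodomain cofactors, which bind DNA together with Hox proteins. Pknox2 held 15 peaks in its span, Pbx3 held 4, Meis2 held 2, and Meis1, Meis3 and Pknox1 held 1 each. Pbx2 had 1 at 0.179 kb (chr17:34591650-34592080), upstream of its start site, whereas the nearest peak to Pbx4 was at 115 kb. The spans of these 8 genes range from 5.14 kb (Pbx2) to 256 kb (Pknox2), and long spans have more room for peaks. The subsets below were formed after the values were seen.

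Of the genes of retinoic acid signalling, which switches on low-numbered Hox genes, 3 of 8 had a peak within 5 kb, against 16.3% of protein-coding genes of all lengths, with spans from 3.8 to 651 kb. These were the receptor genes Rarb (3 peaks in 651 kb), Rxra (2, 1 of them in its span) and Rara (1, at 2.17 kb). Cyp26b1 lay just past the limit at 5.05 kb. The nearest peaks to Cyp26c1, Cyp26a1, Rarg, also a receptor gene, and Aldh1a2 were at 13, 25.6, 68.5 and 326 kb. A peak within 5 kb was also found for Wnt3a, a streak Wnt ligand gene (2 in its span), Gbx2 (2, the nearest at 2.66 kb), Mnx1 (1.14 kb) and Evx2 as above. The caudal genes Cdx1, Cdx2 and Cdx4, known activators of central Hox genes, had their nearest peaks at 127, 134 and 467 kb. The 8 Polycomb genes of the list and Kmt2a, which keeps Hox genes active, had 0 of 9 within 5 kb, which with so few genes cannot be set apart from that share, with Eed nearest at 13.3 kb, Ring1 at 28.5 kb and Kmt2a at 29 kb. Their spans range from 3.89 to 78 kb.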

How the data were processed

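Chromatin from FLAG-MIXL1 cells was profiled in 2 precipitated and 2 input libraries. The authors deposited 1 list of peak positions in mm10. The submitters' processing notes name MACS2, Bowtie2, SAMtools and CASAVA (version 1.8.2). Which threshold and filters were applied, and how input and replicates entered, is not given in the sources used here, and short tags in the deposited list's name that may refer to them are not explained there.

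Genes were taken from RefSeq GRCm38.p6, the assembly of mm10, as spans without exons. Genes in the first 3 Mb of a chromosome were left out, because unplaced genes are also listed there, and the searched length ran from there to the last gene end. All 38 genes matched. A peak counts where it overlaps a region by at least 1 base, distances run between nearest edges, and positions are 1-based. Promoter and miRNA sequences are from RefSeq tables of the same build. The members, lists and alternatives were chosen with earlier results of these data known. The rule for named genes took Hox genes with a peak within 5 kb, the nearest and the end genes of each cluster, their neighbours, genes holding a peak of a window, and genes of the list of 40 with a peak within 5 kb. One item is not reported here. Other genes named were chosen after their values were seen. Intervals are at 95% (exact Poisson, exact conditional for ratios, Wilson for shares) and cover counting only. Distance search and ratio intervals were tested on simulated data. The intervals were tested with independent Poisson counts only, so that check does not cover peaks that lie close together. The scripts ran in Python 3.11.15 with pandas 2.3.3 for tables, scipy 1.17.1 and numpy 2.4.6 for intervals, and matplotlib 3.10.9 for plots.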

Additional observations from a re-analysis of the deposited data

How the results depend on the processing

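Of 23 alternative computations 18 left the value within its limits (a count within 1.5 times, the ratio inside its own interval) and 5 did not. Those 5 were counts after peaks were removed by width or the distance was widened to 50 or 100 kb. Such settings change a count by design, so the tally is no measure of robustness. With only the wider 50% of the peaks, the clusters held 0 peaks, the flanks 14, and 0 Hox genes had a peak within 5 kb. Width was used because the list has no score, and whether it follows the strength of a peak is not known. All 3 peaks inside the clusters are narrower than the median. The count of Hox genes near a peak was 24 within 50 kb and 36 within 100 kb. The density ratio of the Hox windows was 2.64 with flanks of 250 kb and 1.61 with 1000 kb, 2.43 without HoxD and 1.79 without HoxC. Its interval reached below 1 with the wider peaks alone (1.71, 0.932 to 2.87). Against the 4 chromosomes of the clusters, a reference added after the data were seen, it was 2.18. No paired analysis was possible because the 1 list holds no values per library, and for the same reason no library could be left out. Height and depth were unknown, so strong and weak peaks could not be separated.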
